A study of Setaria viridis with 26 samples.

Results

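*SvKn1* (Sevir.9G107600), *SvRa2* (Sevir.5G116100), and *SvFea4* (Sevir.4G119100) are the *Setaria viridis* genes that were taken as putative orthologs of the maize meristem regulators *knotted1*, *ramosa2*, and *fasciated ear4*. They are 3 of the 25298 genes in the deposited node list of a co-expression network of wild-type inflorescences, and were chosen by name because the study discusses them together. The network as the study describes it held more genes, and all shares below are of the genes in the node list. All 3 genes were found in the network, and all 3 had been placed in the same module, tan, which held 798 genes (3.15% of the network). Their locus identifiers place them on chromosomes 9, 5, and 4. Coordinates and sequences of these loci were not used here.

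In maize, *knotted1* encodes a KNOX homeodomain transcription factor (TF) that keeps cells of the shoot meristem from differentiating. *ramosa2* encodes a LOB domain TF that makes the axillary meristems of the inflorescence determinate, so that they form short spikelet-bearing branches, and *fasciated ear4* encodes a bZIP TF that limits the size of the inflorescence meristem. The balance between meristem maintenance and determinacy sets how a grass inflorescence branches.

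The series profiled hand-dissected inflorescence primordia of the wild-type A10.1 accession and of the *Svful2* mutant, which carries a loss-of-function allele of an *AP1/FUL-like* MADS-box gene, by RNA-seq. The authors took only wild-type samples for the network, so that the mutant plays no part in the weights. The wild-type samples of the series were labelled 8 to 9, 10 to 11, and 17 days after sowing (DAS), with 4 replicates each of pooled primordia. Of these, 8 DAS replicate 4 and 17 DAS replicate 3 were left out of the network by the authors, and wild-type primordia of an earlier study were added. The added samples made up most of the network samples. They were mostly taken at stages between those of this series, or later.

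The edge list held 43548751 pairs of genes, each with a weight, the topological overlap. This score runs between 0 and 1 and combines how closely the expression of 2 genes varied over the samples with how many correlated genes they had in common. The network was signed, so that genes with opposite trajectories have little overlap, and no edge has a direction. Listed weights ran from 0.02 to 0.393, with a median of 0.0412, and a pair that is not listed lies below this minimum at an unknown value. Each weight is 1 value over all samples, without replicate error, and the depth behind it is unknown, so that no test was made and all comparisons below are descriptions. The primordia were bulk samples, in which more cells of a type and more RNA per cell cannot be told apart.

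*SvKn1* had the most partners of the 3 genes. It had listed edges to 2812 genes, which is 11.1% of the other genes of the network, while *SvRa2* had 1863 (7.36%) and *SvFea4* had 1752 (6.93%). All 3 lay below the median of 3069 edges over all network genes and above the median of 1737.5 edges over tan genes. Weights ordered the genes differently from counts. The heaviest edge was 0.172 for *SvRa2*, 0.145 for *SvKn1*, and 0.128 for *SvFea4*. *SvRa2* had 163 edges of 0.1 or more, *SvKn1* had 124, and *SvFea4* had 28. The median weights were close to each other, with 0.0338 for *SvKn1*, 0.0358 for *SvRa2*, and 0.0315 for *SvFea4*. *SvRa2* thus had fewer edges in all than *SvKn1* but more of 0.1 or above, and *SvFea4* had the lowest median and the lowest heaviest weight.

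Within tan, the 3 genes were linked to most of the module. *SvKn1* had listed edges to 648 other tan genes (81.3%), *SvRa2* to 620 (77.8%), and *SvFea4* to 594 (74.5%), where 44.6% of all pairs of tan genes were listed. By summed weight within the module, *SvRa2* ranked 10 and *SvKn1* ranked 17 of 798 genes, and *SvFea4* ranked 81. The summed weights were 41.3 for *SvRa2*, 40.0 for *SvKn1*, and 30.5 for *SvFea4*, against a median of 13.6 and a highest value of 47.3 over tan genes. Among the 64 tan genes annotated as TFs, to which *SvRa2* was added because its GO terms do not include TF activity, *SvRa2* ranked 3, *SvKn1* ranked 6, and *SvFea4* ranked 15. Summed over all modules, where edges to the larger modules count, the same genes ranked 248, 150, and 378 of the 798 tan genes. Their position in tan was thus higher by weight within the module than by weight over all modules.

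**Figure D1:**
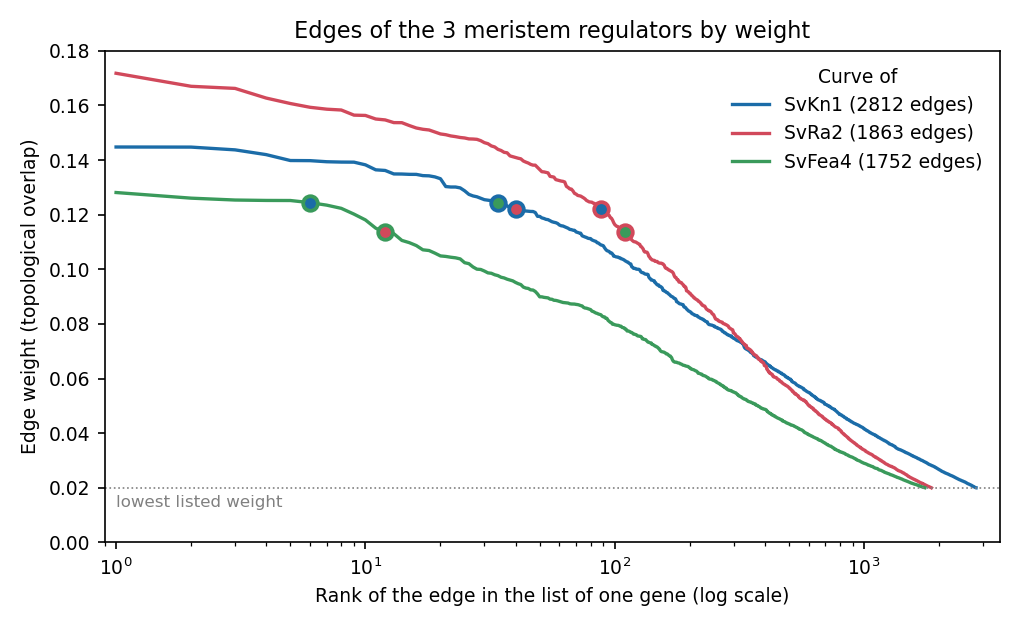
Weights of all listed edges of *SvKn1*, *SvRa2*, and *SvFea4*, ranked from the heaviest (x axis, log scale; y axis, topological overlap). Circles mark the edges among the 3 genes, filled in the color of the partner, and all of them lie between 0.113 and 0.124, at rank 6 and rank 12 for *SvFea4* but at rank 34 to 110 for the others.

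The 3 genes were linked to each other by 3 edges of similar weight. The edge of *SvKn1* to *SvRa2* weighed 0.122, that of *SvKn1* to *SvFea4* 0.124, and that of *SvRa2* to *SvFea4* 0.113. Each was heavier than over 99% of all pairs of tan genes, with 99.6%, 99.7%, and 99.4% of the 318003 pairs below it when pairs that are not listed were counted as below. Among the 2080 pairs of tan TFs and the 3 genes, 97.6%, 98.1%, and 96.6% were lighter. Over all modules, where other modules hold heavier edges, 93.1%, 93.5%, and 91.6% of listed edges were lighter.

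Seen from each gene, the same edges took different places. *SvKn1* was the sixth heaviest partner of *SvFea4* (rank 6 of 1752), and *SvRa2* was the twelfth (rank 12). For *SvKn1*, *SvFea4* ranked 34 and *SvRa2* ranked 40 of 2812 edges, with 98.8% and 98.6% of its edges lighter. For *SvRa2*, *SvKn1* ranked 88 and *SvFea4* ranked 110 of 1863, with 95.3% and 94.1% lighter. The other pair thus stood nearer the top of the *SvFea4* list than of the *SvRa2* list.

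Partners fell into few modules. Besides tan, the modules in which more than 40% of the genes were linked to a single one of the 3 genes or more were royalblue, darkgrey, cyan, darkorange, and brown. *SvRa2* had edges to 193 of 195 royalblue genes (99.0%), *SvKn1* to 140 (71.8%), and *SvFea4* to 139 (71.3%). Of the 91 darkgrey genes, 80 were linked to *SvKn1*, 74 to *SvRa2*, and 63 to *SvFea4*. Cyan (621 genes) was linked to *SvKn1* by 396 genes (63.8%) and to *SvFea4* by 346 (55.7%), but to *SvRa2* by 108 (17.4%). The brown module, which holds *SvFul2*, gave 979 partners of *SvKn1* (40.6% of 2411 genes), 313 of *SvFea4* (13.0%), and 234 of *SvRa2* (9.71%). Brown was the largest group of *SvKn1* partners, larger than tan, whereas tan was the largest for *SvRa2* and for *SvFea4*. Purple was linked mostly to *SvRa2*, with 166 of 936 genes (17.7%), against 33 for *SvFea4* and 21 for *SvKn1*. The magenta module, with 1260 genes, held a single partner, of *SvKn1*.

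**Figure D2:**
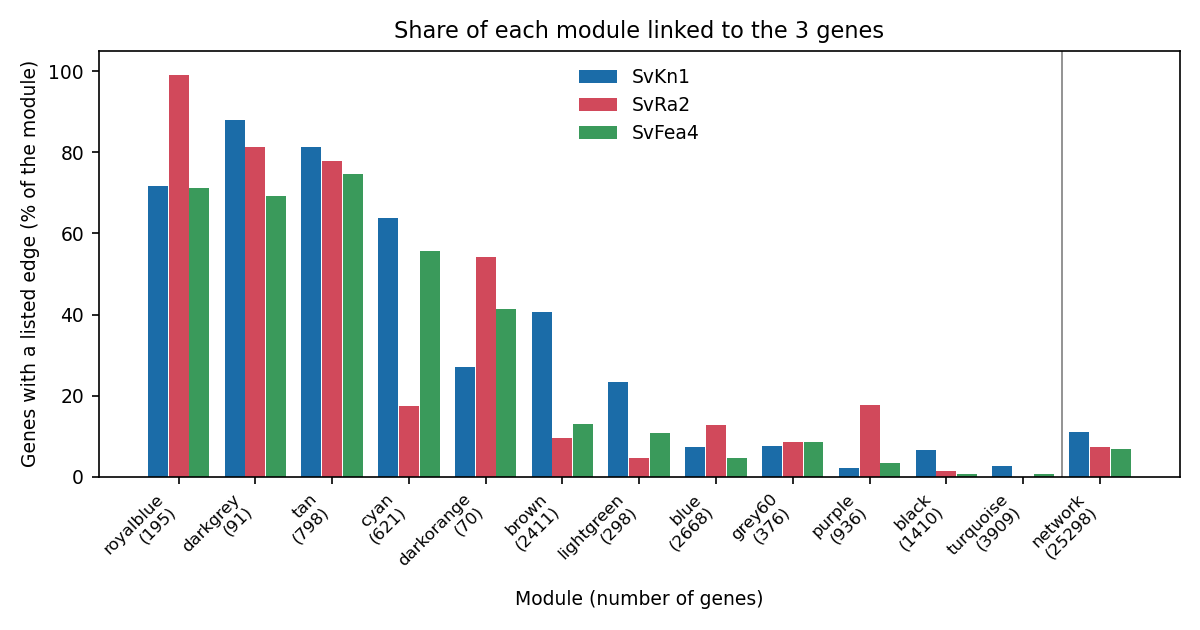
Share of the genes of each module (y axis, percent) with a listed edge to *SvKn1*, *SvRa2*, or *SvFea4*, for modules that gave at least 1 of them 20 partners, with module sizes in parentheses and the share of the whole network at the right. Royalblue, darkgrey, and tan stand above 69% for all 3 genes, and in brown the *SvKn1* bar (40.6%) and in purple the *SvRa2* bar (17.7%) is the tallest.

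The weights showed the same division more sharply. Among the 128 royalblue genes linked to all 3, *SvRa2* had the heaviest edge for 128. The median weight of these genes was 0.0854 with *SvRa2*, 0.0424 with *SvKn1*, and 0.0406 with *SvFea4*. Among the 187 brown genes linked to all 3, *SvKn1* had the heaviest edge for 181, with medians of 0.0572 for *SvKn1*, 0.0297 for *SvRa2*, and 0.0294 for *SvFea4*. In cyan, *SvKn1* was heaviest for 69 of 100 common genes and *SvFea4* for 29. In tan itself, *SvRa2* was heaviest for 312 of 561 and *SvKn1* for 225, with medians of 0.0615 and 0.0618. The 100 heaviest partners of *SvRa2* included 26 royalblue genes, while those of *SvKn1* included 1 and those of *SvFea4* 3.

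In all, 3289 genes had an edge to at least 1 of the 3 genes, and 1233 (4.87% of the network) had edges to all of them. These common partners were 43.8% of the *SvKn1* list, 66.2% of the *SvRa2* list, and 70.4% of the *SvFea4* list. *SvFea4* had few partners of its own. Only 41 genes (2.34% of its list) were linked to *SvFea4* alone, 30 of them in cyan, and 1651 of its 1752 partners (94.2%) were also partners of *SvKn1*. *SvKn1* had 967 partners that neither of the others had (34.4%), of which 622 were brown genes, and *SvRa2* had 376 (20.2%), of which 159 were blue and 128 purple. Partners linked to 1 gene alone had light edges, with a median weight of 0.0261 for *SvKn1* alone, 0.0255 for *SvRa2* alone, and 0.0211 for *SvFea4* alone. The median weights of common partners were 0.0517, 0.0477, and 0.0375, in the same order. A gene counted as alone can therefore have weights with the others that lie just below the listed minimum.

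Of the partners that *SvKn1* or *SvFea4* had, 56.7% were common to both. The share was 55.7% for *SvRa2* and *SvFea4* and 43.9% for *SvKn1* and *SvRa2*, where the median over all pairs of tan genes was 17.4%. In the same order, 97.0%, 96.7%, and 90.4% of the pairs of tan genes had a lower share. Many other tan pairs thus had as much in common as *SvKn1* and *SvRa2*. Topological overlap itself counts common neighbors, so that a shared partner list and a heavy edge are not independent measures. Over the 1233 common partners, the weights of *SvKn1* and *SvFea4* had a Pearson correlation of 0.82, those of *SvRa2* and *SvFea4* of 0.75, and those of *SvKn1* and *SvRa2* of 0.62. These are correlations across genes that share all samples and that were kept only where all 3 weights were listed.

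**Figure D3:**
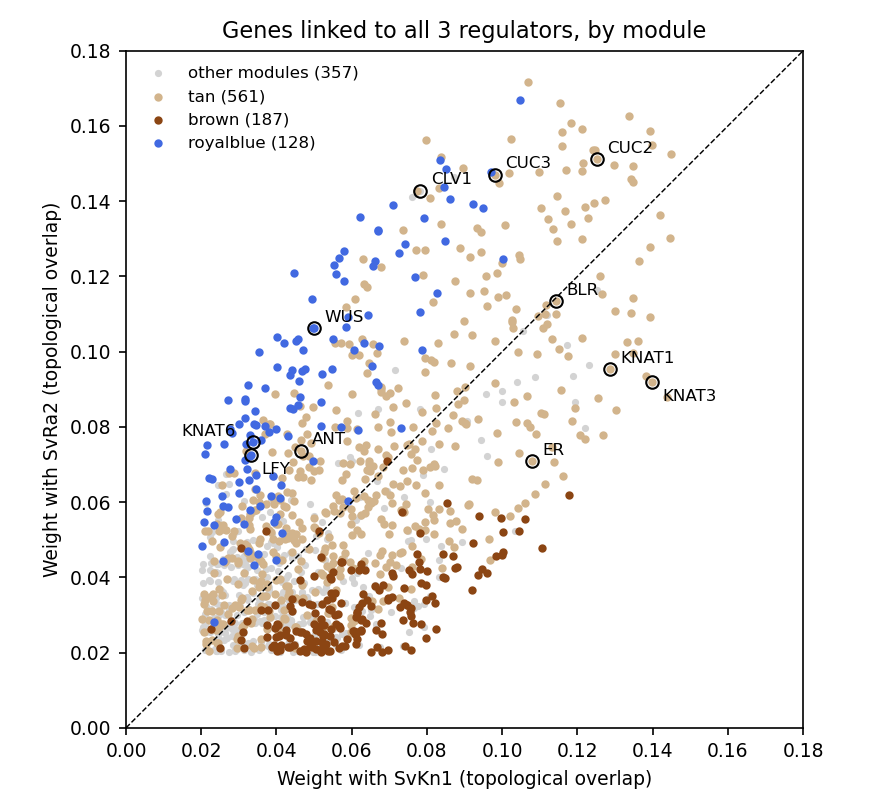
Weight with *SvKn1* (x axis) and with *SvRa2* (y axis) of the 1233 genes linked to all 3 regulators, colored by module, with genes marked by the symbol of their Arabidopsis best hit. All 128 royalblue genes lie above the dashed line of equal weights, and 181 of 187 brown genes lie below it.

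The gene most strongly tied to all 3 at once was Sevir.4G124400, a NAC domain gene whose reciprocal best hit in Arabidopsis is *CUP-SHAPED COTYLEDON2* (*CUC2*), a regulator of organ boundaries. Its weights were 0.125 with *SvKn1*, 0.151 with *SvRa2*, and 0.125 with *SvFea4*, and its lowest weight was the highest of all common partners. Among the 10 common partners with the highest lowest weight, all of them in tan, 2 others were TFs by GO annotation. Sevir.1G309300, the best hit of the Dof TF *OBP4*, had weights of 0.136, 0.124, and 0.125. Sevir.3G225700, the best hit of the BELL homeodomain gene *BELLRINGER* (*BLR*), a partner of KNOX proteins in Arabidopsis, had weights of 0.114, 0.113, and 0.122. Sevir.5G434000, whose best hit is the leucine-rich repeat receptor kinase gene *EMS1*, had 0.127, 0.115, and 0.118. Sevir.7G248200, which carries the GO terms for siRNA and miRNA binding, had 0.121, 0.148, and 0.126. The *CUC2* best hit stood at rank 32 among the edges of *SvKn1*, 17 of *SvRa2*, and 5 of *SvFea4*.

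The very heaviest partners differed between the 3 genes, while longer lists overlapped more. No gene was among the 10 heaviest of all 3, and each pair of genes had 1 of these 10 in common. Of the 100 heaviest, 38 were common to all 3 genes, with 67 for *SvKn1* and *SvFea4*, 56 for *SvRa2* and *SvFea4*, and 41 for *SvKn1* and *SvRa2*. The heaviest partner of *SvKn1* was Sevir.6G208800 (0.145), which the tables pair with the Arabidopsis locus AT5G48090. Its sixth, Sevir.6G118400 (0.140), was the best hit of the class II KNOX gene *KNAT3* and the only TF by GO annotation among its 10 heaviest. The heaviest partner of *SvRa2* was Sevir.1G101900 (0.172), whose best hit is a cytosolic invertase gene. The *SvRa2* list also held Sevir.9G053500 (0.161), with the maintenance DNA methyltransferase *MET1* as best hit, and Sevir.2G059600 (0.166), with an RNA-binding protein. Of the 10 heaviest partners of *SvFea4*, led by Sevir.9G160300 (0.128), 4 were TFs by annotation, namely the best hits of *OBP4*, *CUC2*, and *BLR*, and *SvKn1* itself.

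Genes were also compared by the cosine between their rows of listed weights over all 25298 genes, a measure of how alike their whole partner lists are. The gene most like *SvKn1* was Sevir.6G032100 (cosine 0.965), followed by the *KNAT3* best hit (0.953), and the *KNAT1* best hit Sevir.2G029800 ranked 4 (0.947). That hit is the reciprocal one of the GO table, while the study's gene annotation pairs *SvKn1* itself with *KNAT1*. The gene most like *SvRa2* was Sevir.2G059600 (0.980), and the *CUC2* best hit ranked 3 (0.974). The gene most like *SvFea4* was the zinc finger homeodomain gene Sevir.8G081800 (0.949), and the best hit of *POUND-FOOLISH* (*PNF*), another BELL gene, ranked 5 (0.931). Among the 3 genes themselves, the cosine was 0.881 for *SvKn1* and *SvFea4*, 0.855 for *SvRa2* and *SvFea4*, and 0.783 for *SvKn1* and *SvRa2*. None of the 3 was among the 20 genes most like another, with *SvFea4* closest at rank 21 of *SvKn1*.

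Known meristem genes were looked up through a list of 59 Arabidopsis genes of shoot meristem function. Of these, 38 had a reciprocal best hit in the GO annotation, and 34 of the *S. viridis* genes other than *SvRa2*, itself the best hit of the founding LOB domain gene, were in the network. *SvKn1* was linked to 16 of the 34 (47.1%), and *SvRa2* and *SvFea4* to 14 each (41.2%), where the shares of all network genes were 11.1%, 7.36%, and 6.93%. Of the 34, 9 were in tan, against 3.15% of network genes, and these were linked to all 3 genes. In tan, 81.3%, 77.8%, and 74.5% of the other genes were linked to *SvKn1*, *SvRa2*, and *SvFea4*, so that part of the excess goes with the module. There were 13 best hits linked to all 3 genes and 17 with no listed edge to any. For 9 of the 13, the heaviest edge was to *SvRa2*, and for 3 it was to *SvKn1*. Over all 1233 common partners, the shares were 46.6% for *SvRa2* and 48.2% for *SvKn1*. The 13 lay in tan, royalblue, and midnightblue, where *SvRa2* was heaviest for 312 of 561, 128 of 128, and 3 of 5 common partners. Their split was thus near that of their modules.

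The KNOX and BELL homeodomain genes, whose products form heterodimers that maintain the shoot meristem, had 7 best hits in the network, and 5 were linked to all 3 genes. The 4 in tan had heavy edges. The best hit of *KNAT1* (Sevir.2G029800) had weights of 0.129 with *SvKn1*, 0.0953 with *SvRa2*, and 0.106 with *SvFea4*, and that of *KNAT3* had 0.140, 0.0919, and 0.0958. For these KNOX genes, *SvKn1* had the heaviest edge, while the *PNF* best hit Sevir.5G386500 (0.0982, 0.103, and 0.0980) and the *BLR* best hit differed little between the 3. The *KNAT6* best hit Sevir.5G025700 in royalblue went the other way, with 0.0336, 0.0760, and 0.0278. The best hits of the BELL genes *ATH1* and *BLH6* had no listed edge to the 3 genes.

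A wider search for KNOX domains in the annotation, made after these values were seen, found 9 KNOX genes besides *SvKn1* in the network. *SvRa2* was linked to 6 of them, and *SvKn1* and *SvFea4* to 5 each. Sevir.3G050500 in royalblue again had its heaviest edge to *SvRa2*, with 0.104, against 0.0402 with *SvKn1* and 0.0375 with *SvFea4*. Sevir.9G107200, a KNOX gene in tan that lies 3 loci from *SvKn1* by locus number, had 0.0784 with *SvKn1*, 0.0449 with *SvRa2*, and 0.0491 with *SvFea4*. Whether these neighbors are alike enough in sequence for reads to be split between them by the counting was not tested. Of the 8 loci nearest to *SvKn1*, 2 others had a listed edge to it, both light (0.0232 and 0.0280). None of the loci nearest to *SvRa2* that were in the network had an edge to it, and 1 of those nearest to *SvFea4* did (0.0446).

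The group listed under the CLAVATA-WUSCHEL pathway, a feedback loop that sets the number of stem cells in the meristem, was linked in part. Of the 6 best hits of this group in the network, 3 were linked to all 3 genes. The best hit of *WUSCHEL* (*WUS*), which encodes the homeodomain TF that maintains stem cells, was Sevir.3G028500 in royalblue, with weights of 0.0500 with *SvKn1*, 0.106 with *SvRa2*, and 0.0611 with *SvFea4*. The receptor kinase gene *CLAVATA1* (*CLV1*) had Sevir.4G294000 as best hit, with 0.0783, 0.143, and 0.0961. Its module was midnightblue, of which only 7 of 548 genes were linked to *SvKn1*, 5 to *SvRa2*, and 8 to *SvFea4*. The third was the best hit of the receptor kinase gene *ERECTA* (*ER*), which was listed with this group but is not a part of the loop itself. This gene, Sevir.4G085800 in tan, had 0.108, 0.0708, and 0.0985, with its heaviest edge to *SvKn1*. The best hits of *CLV2*, *CRN*, and *BAM1*, which like *CLV1* encode components of CLAVATA signaling, had no listed edge.

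Organ boundary genes had heavy edges to all 3, with the heaviest to *SvRa2*. Besides the *CUC2* best hit, Sevir.6G213600, the best hit of *CUC3*, had weights of 0.0981 with *SvKn1*, 0.147 with *SvRa2*, and 0.104 with *SvFea4*. Of the genes that pattern organs, *AINTEGUMENTA* (*ANT*), which promotes organ growth, had Sevir.9G073700 in tan as best hit, with 0.0466, 0.0737, and 0.0572. *KANADI1* (*KAN1*), which specifies the lower side of leaves, had a purple gene as best hit, linked to *SvRa2* alone (0.0492). *REVOLUTA* (*REV*), which specifies the upper side, had a cyan gene as best hit, with light edges to *SvKn1* (0.0226) and *SvFea4* (0.0248). The best hits of *FILAMENTOUS FLOWER* (*SvYab15*) and *PHABULOSA* were not linked. The best hit of *AS1*, a MYB gene that represses KNOX genes in leaf primordia, was Sevir.3G340600, also in tan. Its weights were 0.0242 with *SvKn1*, 0.0543 with *SvRa2*, and 0.0404 with *SvFea4*. The best hits of the LOB domain genes *AS2* and *LBD36*, both in magenta, had no listed edge.

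Other groups had few edges or none. Of 5 best hits of TGA bZIP genes, the family of *SvFea4*, and of their glutaredoxin and BOP partners, only that of *TGA10* was linked, to *SvKn1* (0.0307). The best hits of the auxin genes *PID* and *MP* had no listed edge. The only cytokinin gene found, the best hit of the receptor gene *AHK4*, had a light edge to *SvKn1* (0.0245). The best hit of *LEAFY* (*LFY*), which confers floral meristem identity in Arabidopsis, was Sevir.7G234001 in royalblue, with 0.0333 with *SvKn1*, 0.0725 with *SvRa2*, and 0.0421 with *SvFea4*. The royalblue genes named here, the best hits of *KNAT6*, *WUS*, and *LFY* and the KNOX gene Sevir.3G050500, all had their heaviest edge to *SvRa2*. The same held for all 128 royalblue genes linked to all 3, so that it is a trait of the module and not of these genes.

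**Figure D4:**
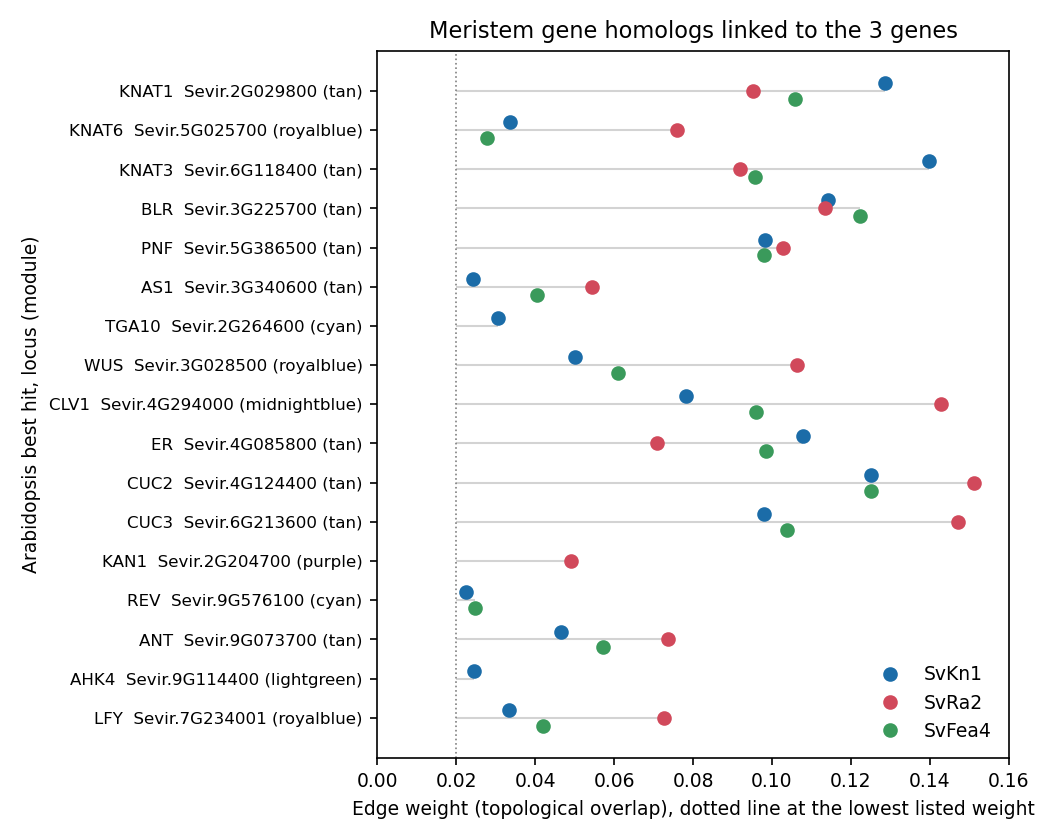
Edge weights (x axis, topological overlap) of the 17 best hits of Arabidopsis meristem genes that had a listed edge to *SvKn1*, *SvRa2*, or *SvFea4*, with locus and module. *CUC2*, *CUC3*, and *CLV1* best hits reach 0.143 to 0.151 with *SvRa2*, and those of *KNAT3* and *KNAT1* reach 0.140 and 0.129 with *SvKn1*.

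Of 22 flowering and inflorescence genes that the study discusses by identifier, 5 had a listed edge to any of the 3 genes, and all 5 were MADS-box genes. *SvMads34*, an E-class gene in cyan, had the heaviest, with 0.0751 with *SvKn1*, 0.0255 with *SvRa2*, and 0.0595 with *SvFea4*. *SvMads56* had 0.0506 with *SvKn1* and 0.0461 with *SvFea4*, and *SvMads37.1* had 0.0290 and 0.0224. Of the *AP1/FUL-like* genes, *SvFul2* was linked to all 3, with 0.0436 with *SvKn1*, 0.0239 with *SvRa2*, and 0.0279 with *SvFea4*. The edge to *SvRa2* was near the listed minimum, at rank 1523 of its edges, and the others stood at ranks 913 and 1071. *SvFul3* was linked to *SvKn1* alone, with a weight of 0.0435. In all, *SvKn1* was linked to 5 of the 22 genes, *SvFea4* to 4, and *SvRa2* to 2, beside 11.1%, 6.93%, and 7.36% of all network genes, so that the count for *SvRa2* is near its background. Each of the 5 linked genes had its heaviest edge to *SvKn1*, as was common in their modules. *SvKn1* was heaviest for 181 of 187 common partners in brown, the module of *SvFul2* and *SvFul3*. In cyan, the module of *SvMads34* and *SvMads56*, it was heaviest for 69 of 100. Turquoise, the module of *SvMads37.1*, held 104 partners of *SvKn1*, 26 of *SvFea4*, and 2 of *SvRa2*. *SvFul1*, *SvFul4*, *SvMads5*, and *SvMads51* had no listed edge to the 3 genes. The same held for the *AP2-like* genes *SvSid1* and *SvIds1*, which limit indeterminate growth of the spikelet meristem in maize, and for the florigen-related genes *SvFtl1*, *SvZcn2*, *SvMtf1*, and *SvFd1*.

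GO terms were counted as the share of the network genes of a term that had a listed edge to each gene. TFs were linked more often than the background. Of the genes annotated with DNA-binding TF activity, 18.9% were linked to *SvKn1*, 16.8% to *SvRa2*, and 15.3% to *SvFea4*, where 11.1%, 7.36%, and 6.93% of all genes were linked. Seen from the partner lists, 178 of 2812 partners of *SvKn1* (6.33%), 159 of 1863 of *SvRa2* (8.53%), and 144 of 1752 of *SvFea4* (8.22%) were TFs, as were 3.74% of network genes. Of the 795 other tan genes, 7.80% were TFs, so that these shares lay near that of their own module. Among the 100 heaviest partners, 11 were TFs for *SvKn1*, 18 for *SvRa2*, and 16 for *SvFea4*.

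Meristem terms differed among themselves. “Meristem maintenance” (74 genes) had 39.2% of its genes linked to *SvKn1*, 29.7% to *SvRa2*, and 32.4% to *SvFea4*. “Maintenance of inflorescence meristem identity” had 11, 8, and 10 of 26 genes linked, and “stem cell development” had 25, 23, and 23 of 83. “Meristem initiation”, a term that *SvKn1* itself carries, had 20.6% of its other genes linked to *SvKn1*, 15.7% to *SvRa2*, and 16.3% to *SvFea4*. The partner lists were again near their own module. “Meristem maintenance” was carried by 1.03%, 1.18%, and 1.37% of partners and 1.13% of other tan genes. “Meristem initiation” was carried by 1.21%, 1.40%, and 1.54% of partners and 1.51% of other tan genes. In contrast, “regulation of meristem growth”, the largest of these terms with 302 genes, lay near the background with 10.3%, 9.93%, and 8.28%, and “floral meristem determinacy” had 4, 2, and 3 of 30 genes linked. Over the 9 meristem terms counted, 531 network genes carried at least 1, of which 117 were linked to any of the 3 genes and 59 (11.1%) to all of them, where 4.87% of network genes were linked to all.

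Of the other functions, microtubule motor activity differed most between the 3 lists. Genes of “microtubule motor activity”, the function of motor proteins that also serve the spindle of dividing cells, were linked to *SvKn1* for 16 of 57 (28.1%), to *SvFea4* for 5 (8.77%), and to *SvRa2* for 2 (3.51%). “Cell division” had 19.7% of 294 genes linked to *SvKn1*, 11.2% to *SvRa2*, and 11.9% to *SvFea4*. “Xylem and phloem pattern formation”, which *SvKn1* also carries, had 31.6%, 25.0%, and 27.5% of its other genes linked. “Structural constituent of ribosome” (3.65%, 2.64%, and 2.43%) and “photosynthesis” (5.74%, 4.10%, and 3.28%) lay below the background for all 3. Of the hormone terms, “gibberellin biosynthetic process” had 15, 13, and 13 of 78 genes linked (19.2%, 16.7%, and 16.7%). “Auxin-activated signaling pathway” (17.1%, 13.3%, and 11.0%) and “cytokinin-activated signaling pathway” (15.5%, 14.3%, and 13.1%) also lay above the background. “Brassinosteroid biosynthetic process” lay near it (10.7%, 6.92%, and 8.18%). “Response to cytokinin” lay below it, with 13, 9, and 4 of 196 genes (6.63%, 4.59%, and 2.04%). The direction of any change in hormone level cannot be read from these counts, and the terms overlap in their genes.

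**Figure D5:**
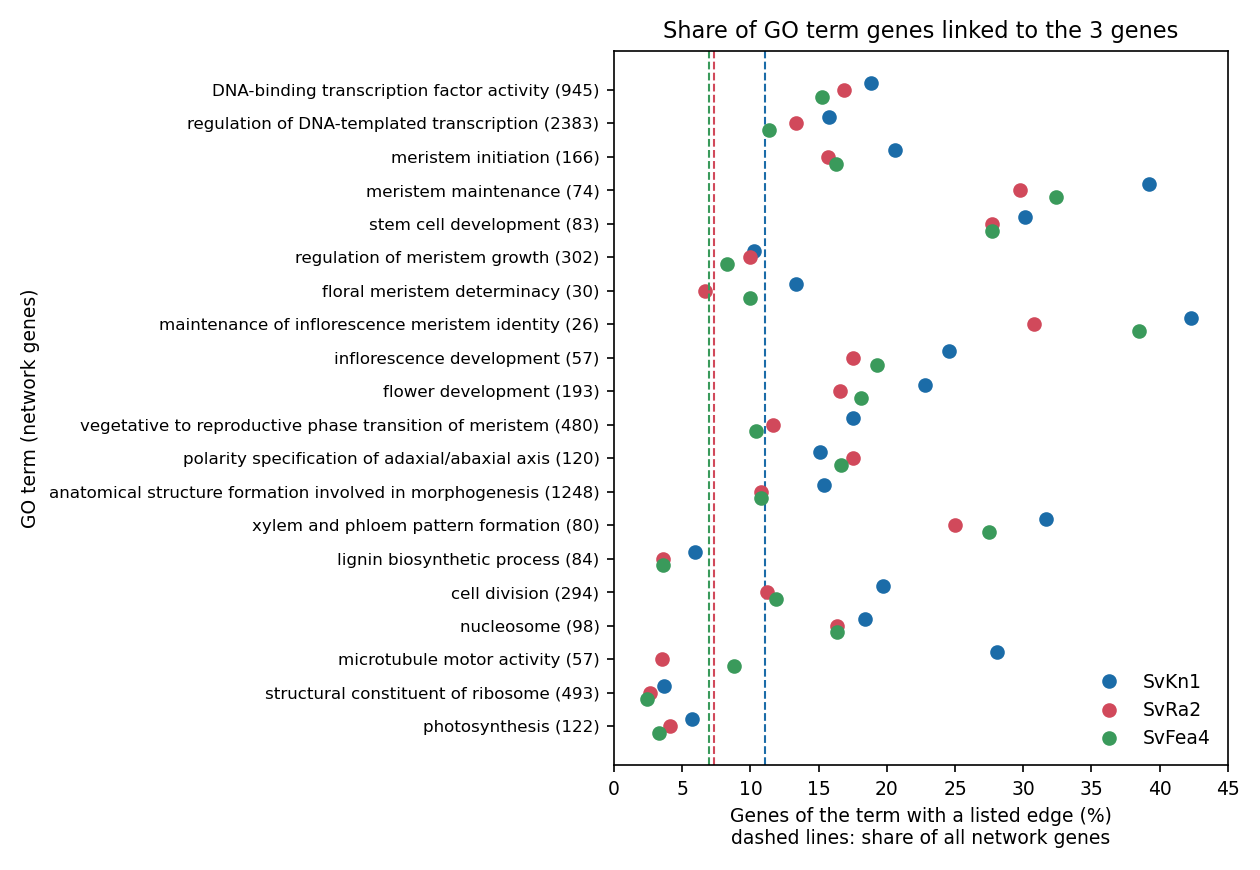
Share of the network genes of each GO term (x axis, percent, with the number of genes in parentheses) that had a listed edge to *SvKn1*, *SvRa2*, or *SvFea4*. Dashed lines mark the shares of all network genes (11.1%, 7.36%, and 6.93%), and meristem maintenance lies at 39.2%, 29.7%, and 32.4%.

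The annotation of the 3 genes themselves had little in common. *SvKn1* carried 14 terms and *SvFea4* 13, of which 5 were shared, all of them for DNA binding, transcription, and the nucleus. *SvRa2* carried 13 terms, of which it shared 1 with *SvKn1* and none with *SvFea4*. TF activity was not among the *SvRa2* terms, which included hydrolase activity and integral component of membrane beside organ boundary specification, so that counts of TFs among partners leave out *SvRa2* as a partner of *SvKn1* and *SvFea4*. *SvFea4* carried terms for salicylic acid signaling and systemic acquired resistance, which are known functions of TGA proteins in Arabidopsis, and for regulation of flower development.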

How the data were processed

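Per the labels and the methods, reads were quantified by the authors with Salmon (0.13.0) against version 2.1 primary transcripts, lowly counted genes and a pair of wild-type samples were dropped, counts were variance stabilized, and WGCNA was run on biweight midcorrelations as a signed network. Its topological overlap was deposited by the authors as a score for each listed gene pair. The deposited module color and GO term (GOMAP pipeline) are labels of each gene.

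Edges were checked to be undirected and listed once, and transcripts were matched to loci by identifier. Partners, ranks, shares, and cosines were computed with pyarrow 21.0.0, scipy 1.17.1, pandas 2.3.3, and numpy 2.4.6 in Python 3.11.15 and drawn with matplotlib 3.10.9, and the functions were tested on simulated data. The 678 GO assignments marked NOT were left out. GO terms were used without adding parent terms. Arabidopsis names are reciprocal best hits cited in the GO table or, for the genes of *EMS1*, *MET1*, the invertase, and the RNA-binding protein, best hits in the study's gene annotation. The Arabidopsis symbols were assigned from general knowledge of those loci.

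Genes named were the 10 heaviest partners of each gene, the 10 common partners with the highest lowest weight, the 5 most similar genes by cosine, neighboring loci, and lists of 22 genes of the study, 59 Arabidopsis genes, and 35 GO terms. Those of each list on which a count turned are named in the text. The 3 genes and these lists were chosen with earlier results of these data known. Alternatives were other measures of rank, higher weight minimums, shorter lists, and other GO terms. The files have no column for a single sample, so that expression levels, mutant samples, DNA samples, and the depth of each sample were not analysed here.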

Additional observations from a re-analysis of the deposited data

How the results depend on the processing

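No paired analysis was possible because each weight is a single value over all samples, with no replicates to pair. Of 54 alternative values, 11 stayed within the interval or fold set for an unchanged value and 43 did not. The interval was the 95% exact binomial interval for shares and percentiles and 1.5-fold for ranks, and it covers counting error only. For *SvKn1*, *SvRa2*, and *SvFea4*, the rank within tan was 26, 48, and 77 by number of edges, 150, 248, and 378 by weight summed over all modules, 20, 6, and 83 with edges of 0.04 or more, and 6, 3, and 15 among TFs. The share of own edges lighter than the edge of *SvKn1* to *SvRa2*, *SvKn1* to *SvFea4*, and *SvRa2* to *SvFea4* was 94.1%, 94.9%, and 87.4% over tan partners, 95.3%, 99.7%, and 99.3% from the second gene, and 96.1%, 96.6%, and 88.1% over TF partners. The share of partners in tan was 40.2%, 56.3%, and 60.4% with edges of 0.04 or more and 87.0%, 70.0%, and 89.0% for the 100 heaviest edges. The share of partners linked to all 3 was 41.4%, 60.5%, and 74.7% at 0.03 or more, 42.8%, 55.6%, and 77.8% at 0.04 or more, 31.1%, 54.1%, and 58.0% without tan genes, and 59.2% for each gene when lists were shortened to the length of the shortest. The share of TFs was 13.3%, 17.1%, and 15.4% with the term regulation of DNA-templated transcription (9.42% of network genes), 8.07%, 9.76%, and 10.8% at 0.04 or more, and 11.0%, 18.0%, and 16.0% for the 100 heaviest. It did not move when NOT assignments were kept or when only annotated partners were counted. The number of partners common to all 3 was 456 at 0.04 or more and 1037 with lists of equal length. The minimum weight of the edge list limits all counts, since a pair below it has an unknown value.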

Other observations

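Genes of small RNA pathways were among the partners of all 3 genes. These were noticed after the values were seen and were not on a list. Of 15 network genes annotated with siRNA binding, 9 were linked to *SvKn1*, 9 to *SvRa2*, and 8 to *SvFea4*, and 7 were linked to all of them, where 11.1%, 7.36%, and 6.93% of all network genes were linked to each and 4.87% to all. Of 17 genes annotated with miRNA binding, 7, 8, and 7 were linked, in the same order, and 6 were linked to all. The siRNA and miRNA binding terms share genes, so that these counts are not independent. Many of the linked genes had more edges than the median of 3069 over network genes, with up to 5795. A gene with many edges is more often a partner of any gene. Of the 15 siRNA binding genes, 2 were in tan, and these had 2185 and 2443 edges. Sevir.2G069400 in tan carries the same siRNA and miRNA binding terms as Sevir.7G248200 and had weights of 0.135 with *SvKn1*, 0.114 with *SvRa2*, and 0.0971 with *SvFea4*. Sevir.9G565900 in brown, the reciprocal best hit of the Arabidopsis Dicer gene *DCL1*, which makes miRNAs, had 0.0844, 0.0402, and 0.0421. Both had their heaviest edge to *SvKn1*, while Sevir.7G248200 had it to *SvRa2*.

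GO terms that differed most between the 1233 partners common to all 3 genes and the 1384 partners of 1 gene alone were chosen by that difference. The largest was for the nucleus, which 36.2% of common partners carried, against 29.5% of the others and 23.7% of network genes. The share was 27.7% for partners of *SvKn1* alone, the largest group, and 26.8% for those of *SvFea4* alone. For partners of *SvRa2* alone it was 34.3%, near that of common partners. Chloroplast was at the other end, with 5.68% of common partners, 9.32% of the others, and 10.2% of network genes. Microtubule binding, which belongs to the same cell functions as motor activity, was carried by 4 common partners and 26 partners of 1 gene alone. It was carried by 20 of the 967 partners of *SvKn1* alone, by 6 of the 376 partners of *SvRa2* alone, and by 0.553% of network genes.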
